A study of Homo sapiens with 30 samples.

Results

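The AP-1 transcription factors are described here through the mRNA of their 7 classical subunits, the Fos proteins FOS, FOSB, FOSL1 (FRA-1) and FOSL2 (FRA-2) and the Jun proteins JUN, JUNB and JUND. The members were taken by gene symbol, and all 7 were found once each among the 58278 genes counted. The RNA came from HEK293, an established line derived from human embryonic kidney (genotype wt), transfected by lipofection with plasmid DNA for a mistranslation reporter, an EGFP variant joined to mCherry, with or without its cognate missense-correcting tRNA (mc-tRNA). An mc-tRNA reads the codon of one amino acid but delivers a different one. The groups with an mc-tRNA were EGFP(R65)+Ser-tRNA_Arg(CCG), EGFP(R96Q)+Arg-tRNA_Gln(CUG), EGFP(R96C)+Arg-tRNA_Cys(GCA), EGFP(R96H)+Arg-tRNA_His(GUG) and EGFP(R96W)+Arg-tRNA_Trp(CCA), and each was set against its own reporter alone, that is, the same EGFP variant without the tRNA. Each of the 10 groups had 3 libraries that the labels call independent replicates, and every library came from mCherry-positive cells sorted 48 h after transfection. No group was untransfected, so all values are those of cells that express a reporter, and each comparison asks how an mc-tRNA changed mRNA levels beside its reporter.

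AP-1 is a dimer of basic leucine zipper (bZIP) proteins that binds the palindrome TGANTCA. Jun proteins pair with each other or with Fos proteins, whereas Fos proteins cannot pair among themselves and need a Jun or another bZIP partner. FOS, FOSB, JUN and JUNB are immediate early genes, switched on by growth factors and by stress through the ERK, p38 and JNK kinase cascades without new protein synthesis, and their mRNA is short-lived. JNK is named for its phosphorylation of the JUN protein, and JUN is known to bind and activate its own promoter.

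Upstream sequence is shown for the members with an entry in the promoter table, FOS, FOSB, FOSL2, JUN, JUNB and JUND, because stretches that such factors are known to bind stand in it. Sequences are from RefSeq on GRCh38.p14, 5′ to 3′ on the strand of the gene, and positions count back from the RefSeq start, with -1 the base before it. Capitals mark TGACGT (the core of the cAMP response element bound by CREB and ATF proteins) or ACGTCA, which is TGACGT on the other strand, TGACNTCA (the longer AP-1 and ATF element) and TATAAA (the TATA box); both strands were searched, and TGACGTCA contains TGACGT. The FOS run is chr14:75278578-75278773 on the plus strand and ends at -55, the FOSB run is chr19:45467746-45467994 on the plus strand, the FOSL2 run is chr2:28392608-28392801 on the plus strand and ends at -57, the JUN site, which GENCODE places in a JUN exon and of which only a short stretch is shown, is chr1:58784096-58784125 on the minus strand, the JUNB run is chr19:12791236-12791485 on the plus strand and the JUND run is chr19:18281623-18281872 on the minus strand.
FOS: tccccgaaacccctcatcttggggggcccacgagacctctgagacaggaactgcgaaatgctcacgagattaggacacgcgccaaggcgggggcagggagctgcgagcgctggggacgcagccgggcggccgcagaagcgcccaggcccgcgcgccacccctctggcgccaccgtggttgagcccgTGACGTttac
FOSB: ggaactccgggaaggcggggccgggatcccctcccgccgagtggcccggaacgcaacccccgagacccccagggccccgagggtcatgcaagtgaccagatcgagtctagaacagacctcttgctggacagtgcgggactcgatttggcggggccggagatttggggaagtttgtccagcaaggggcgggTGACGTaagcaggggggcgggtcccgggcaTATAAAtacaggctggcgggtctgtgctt
FOSL2: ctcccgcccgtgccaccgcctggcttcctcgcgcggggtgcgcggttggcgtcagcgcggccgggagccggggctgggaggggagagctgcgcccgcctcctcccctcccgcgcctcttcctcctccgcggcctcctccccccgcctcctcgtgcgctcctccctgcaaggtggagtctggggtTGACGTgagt
JUN: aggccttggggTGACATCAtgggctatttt
JUNB: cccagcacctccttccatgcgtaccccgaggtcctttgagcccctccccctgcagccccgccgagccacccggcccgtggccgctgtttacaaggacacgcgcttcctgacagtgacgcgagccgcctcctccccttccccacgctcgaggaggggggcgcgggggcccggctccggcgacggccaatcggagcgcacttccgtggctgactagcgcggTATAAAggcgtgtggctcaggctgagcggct
JUND: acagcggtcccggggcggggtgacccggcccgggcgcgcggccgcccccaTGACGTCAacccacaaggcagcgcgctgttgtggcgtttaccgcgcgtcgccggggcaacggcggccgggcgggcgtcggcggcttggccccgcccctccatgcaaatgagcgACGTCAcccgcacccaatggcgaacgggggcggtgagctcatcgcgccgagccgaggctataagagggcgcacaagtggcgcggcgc
In JUN the letters TGACATCA stood at -67 to -60, and in JUND the letters TGACGTCA stood at -200 to -193. TGACGT was found in 4 of the 6 members with an entry in the promoter table (FOS, FOSB, FOSL2 and JUND), against 7.1% of 35116 RefSeq promoters searched over the same 250 bases. TGACNTCA was found in JUN and JUND, against 6.87% of promoters, and TATAAA in FOS, FOSB and JUNB, against 10.7%. The canonical TGANTCA was in none of the 6 windows and in 6.57% of promoters, and the CArG box, bound by SRF, was in none of the 6 and in 1.16%. GAANNTTC, a pair of heat shock factor repeats, was found in JUN only among the 6, and in 5.78% of promoters. These matches describe the letters in the windows and were not tested against the mRNA values. Sequence more than 250 bases upstream was not searched, so the lack of a match does not show that a gene lacks the site. No promoter entry was used for FOSL1.

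Libraries held 39017548 to 55446962 counts over genes, and a count of 0 allows 0.0541 to 0.0769 CPM (counts scaled to a common library size). The members were far above that limit: their raw counts ran from 78 for FOSL1 in an EGFP(R96H) library to 49894 for JUN in an EGFP(R96C)+Arg-tRNA_Cys(GCA) library. All 7 passed the filter on low counts, among 22321 genes tested. The 5 markers of HEK293 cells (NEFL, NEFM, NEFH, INA and PAX2) summed to 94.4 to 183.2 CPM, with each detected in every library. NEFL, NEFM and INA carried the sum, while NEFH was low (0.0911 to 1.215 CPM), near that limit in its lowest library, and PAX2 had 1.72 to 4.84 CPM. The 12 markers of blood, stroma, endothelium, keratinocytes and liver summed to 18.8 to 53.6 CPM, of which COL1A1 alone gave 15.1 to 47.8 CPM, while PTPRC, CD3E, HBB, KRT5 and KRT14 stayed under 0.1 CPM. ERCC spike-in counts were 0 in all 6 EGFP(R65) libraries and 10 to 106 in the 24 libraries with an EGFP(R96) reporter. The labels name no batch, and the source of these counts is not known. A difference between EGFP(R65) and the other reporters therefore cannot be told apart from a possible difference in how the libraries were handled. In bulk RNA, fewer cells with a transcript and less of it per cell cannot be told apart.

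The words rose and fell are used for genes whose adjusted p was below 0.05, which are called genes here, in edgeR's quasi-likelihood test with Benjamini-Hochberg adjustment over all genes tested. Arg-tRNA_Cys(GCA) moved the family most: 6 of 7 members rose and 0 fell, where 60.7% of all genes tested were called, 30.2% rose and 30.5% fell. With Ser-tRNA_Arg(CCG), 5 of 7 rose and 0 fell, where 57.3% of all genes were called, 26.6% rose and 30.7% fell. With Arg-tRNA_Trp(CCA), 5 of 7 rose and 0 fell, where 42.5% were called, 20.7% rose and 21.7% fell. With Arg-tRNA_His(GUG), 1 of 7 rose and 0 fell, where 2.51% were called, 1.56% rose and 0.950% fell. With Arg-tRNA_Gln(CUG), 1 rose and 1 fell, where 0.551% were called, 0.273% rose and 0.278% fell. The libraries of both groups did not overlap for 7 members with Arg-tRNA_Cys(GCA) (61.8% of all genes), 6 with Ser-tRNA_Arg(CCG) (66.3%), 4 with Arg-tRNA_Trp(CCA) (47.8%), 7 with Arg-tRNA_His(GUG) (27.0%) and 2 with Arg-tRNA_Gln(CUG) (16.2%). Where the members' share lies near that of all genes, the count is no result about the family. The median log2 change of the 7 members was 1.21 with Arg-tRNA_Cys(GCA), 0.40 with Ser-tRNA_Arg(CCG), 0.50 with Arg-tRNA_Trp(CCA), 0.29 with Arg-tRNA_His(GUG) and -0.05 with Arg-tRNA_Gln(CUG), against medians over all genes of -0.04, -0.02, -0.03, -0.00 and 0.00 in the same order.

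**Figure D1:**
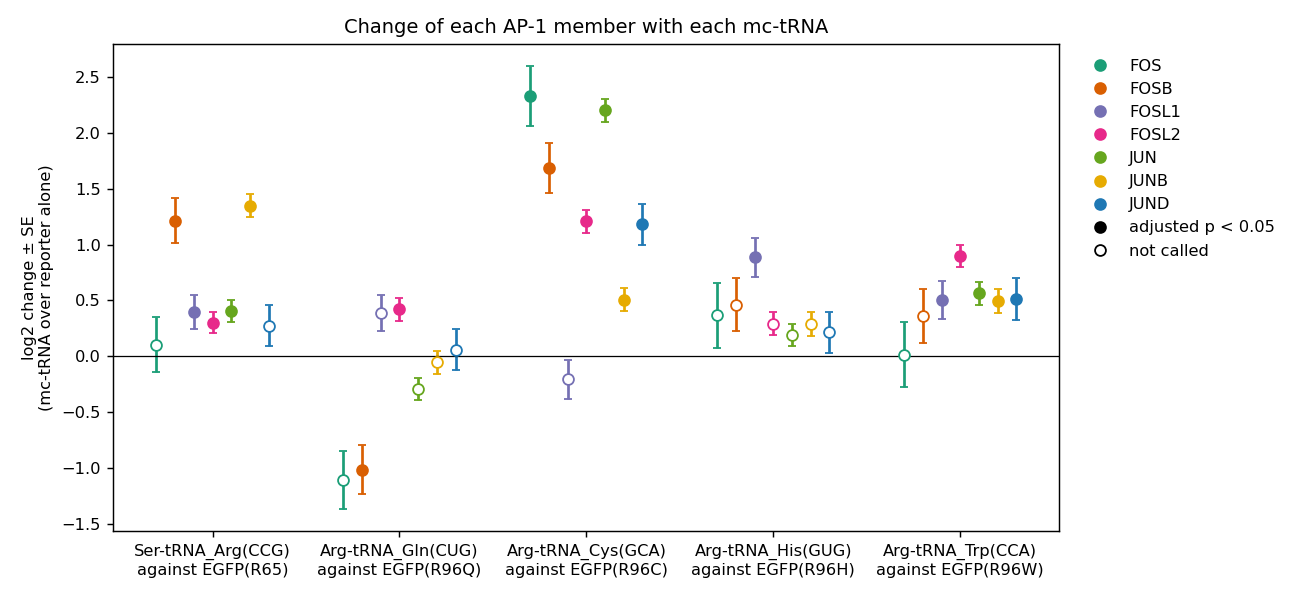
Log2 change (mc-tRNA over reporter alone, ± SE, 3 libraries against 3) of each AP-1 member in the 5 comparisons; filled points have an adjusted p under 0.05 and open points do not. FOS at 2.33 and JUN at 2.20 with Arg-tRNA_Cys(GCA) stand highest, JUNB at 1.35 and FOSB at 1.21 lead with Ser-tRNA_Arg(CCG), and FOS at -1.11 and FOSB at -1.02 with Arg-tRNA_Gln(CUG) stand lowest.

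Counts scaled to CPM still depend on transcript length, so levels between members were compared per kilobase (kb) of annotated exon. JUN had the highest level per kb in all 10 groups, JUND the second highest and JUNB came next. JUN averaged 381.3 CPM per kb with Arg-tRNA_Cys(GCA) and 57.2 to 141.2 in the other 9 groups, and it made up 80.9% of the family's summed level per kb with Arg-tRNA_Cys(GCA) and 64.7% to 72.5% elsewhere. Fos members were the smaller part of the family everywhere. They made up 3.63% ± 0.27 of the summed level per kb with Arg-tRNA_Cys(GCA) and 4.92% ± 0.98 in EGFP(R96C) alone (SD, n = 3 each), and 9.74% ± 0.31 with Ser-tRNA_Arg(CCG) and 10.0% ± 0.7 in EGFP(R65) alone. FOS, the founding member, ranked just below JUNB in 8 groups. FOSL1 took that place with Arg-tRNA_His(GUG), at 1.71 ± 0.04 CPM per kb against 1.54 ± 0.09 for FOS, and FOSL2 took it with Arg-tRNA_Trp(CCA), at 2.93 ± 0.29 against 2.18 ± 0.04 for FOSL1 (SD, n = 3).

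**Figure D2:**
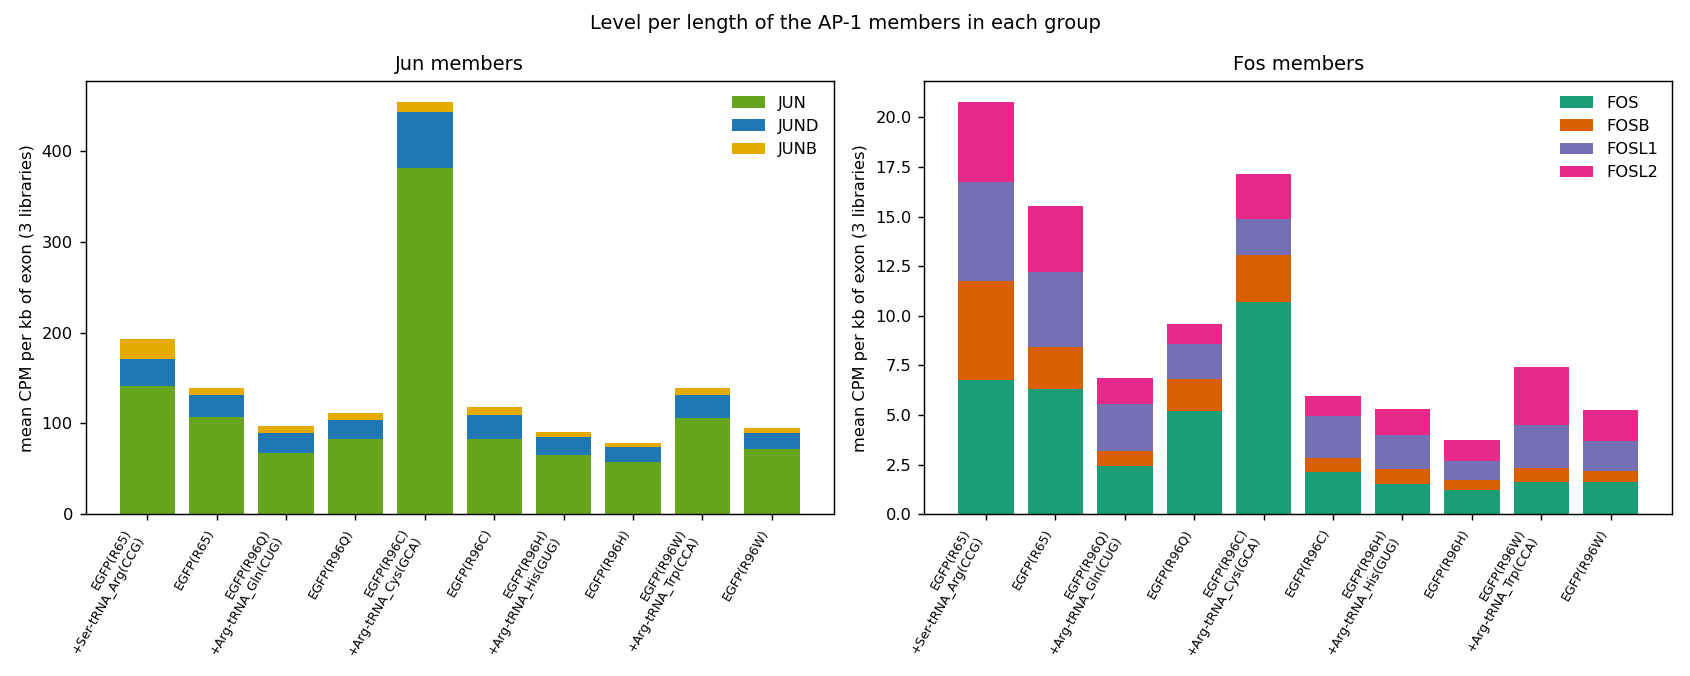
Mean level per kb of exon (CPM per kb, 3 libraries) of the Jun members (left) and Fos members (right) in each group, stacked, with each mc-tRNA group left of its reporter alone; the axes of the panels differ. JUN fills most of every bar on the left and reaches 381.3 with Arg-tRNA_Cys(GCA), and the summed Fos level is highest with Ser-tRNA_Arg(CCG), at 20.8.

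With Arg-tRNA_Cys(GCA), all 3 Jun members and 3 of the 4 Fos members rose. JUN, the main Jun subunit here (ENSG00000177606, chr1:58780788-58784327, minus strand, GRCh38), measured 1352, 1408 and 1289 CPM in EGFP(R96C)+Arg-tRNA_Cys(GCA) libraries, against 254.2, 277.6 and 347.0 CPM in EGFP(R96C) libraries. The lowest library with the mc-tRNA lay far above the highest without it, and JUN rose 4.61-fold (log2 change 2.20 ± 0.10, adjusted p = 6.95e-17). JUND (ENSG00000130522, chr19:18279760-18281622, minus strand), known as the Jun member least dependent on stimulation, measured 112.0, 118.7 and 111.4 CPM with Arg-tRNA_Cys(GCA), against 40.7, 48.0 and 61.9 CPM in EGFP(R96C) alone. The groups did not overlap and the log2 change was 1.18 ± 0.18 (adjusted p = 7.84e-06). JUNB (ENSG00000171223, chr19:12791496-12793315, plus strand), a Jun protein that in many settings restrains JUN, had 21.7, 21.2 and 20.6 CPM with the mc-tRNA, against 12.6, 13.2 and 18.8 CPM in EGFP(R96C) alone, a log2 change of 0.50 ± 0.10 (adjusted p = 6.86e-05). It rose least of the Jun members, and one EGFP(R96C) library lay close to the mc-tRNA libraries.

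Among the Fos members, FOS (ENSG00000170345, chr14:75278774-75282230, plus strand) measured 36.4, 38.5 and 29.2 CPM in EGFP(R96C)+Arg-tRNA_Cys(GCA) libraries, against 7.81, 7.02 and 5.94 CPM in EGFP(R96C) libraries. That is a 5.03-fold rise (log2 change 2.33 ± 0.27, adjusted p = 9.98e-08) with no overlap. FOSB (ENSG00000125740, chr19:45467995-45475179, plus strand), known for a long-lived short isoform in stimulated brain, measured 14.4, 13.5 and 10.9 CPM with Arg-tRNA_Cys(GCA), against 3.81, 3.58 and 4.62 CPM in EGFP(R96C) alone (log2 change 1.69 ± 0.22, adjusted p = 4.44e-07). FOSL2 (ENSG00000075426, chr2:28392448-28417312, plus strand) measured 16.9, 17.2 and 14.8 CPM with the mc-tRNA, against 6.60, 7.35 and 7.20 CPM without it (log2 change 1.21 ± 0.10, adjusted p = 1.32e-12). FOSL1 (ENSG00000175592, chr11:65892049-65900573, minus strand), a Fos protein that lacks the C-terminal activation domain of FOS and is best known from invasive carcinomas, did not follow the others. It measured 3.51, 3.25 and 3.56 CPM with Arg-tRNA_Cys(GCA), against 4.17, 3.91 and 3.84 CPM in EGFP(R96C) alone, a log2 change of -0.21 ± 0.17 (adjusted p = 0.299). The Arg-tRNA_Cys(GCA) values depend on how libraries are scaled. With library totals in place of TMM factors, the median of all genes was -0.59 and 20.2% of called genes rose in place of 49.8%. JUNB then stood at -0.05 (adjusted p = 0.731) and FOSL1 fell (log2 change -0.76, adjusted p = 0.00025), while JUN, JUND, FOS, FOSB and FOSL2 still rose, by 0.63 to 1.79. The 10 most abundant genes took 10.1% to 10.4% of counts with Arg-tRNA_Cys(GCA), against 5.86% to 6.67% in EGFP(R96C) alone. Their part in the shift was not tested. Relative to the median of all genes, JUNB stood at 0.55 with TMM factors and 0.54 with library totals, and JUN at 2.25 and 2.24. Other scaling factors shift all genes nearly alike, so these pairs of values had to be close. Their closeness does not show that JUNB rose whatever the scaling.

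**Figure D3:**
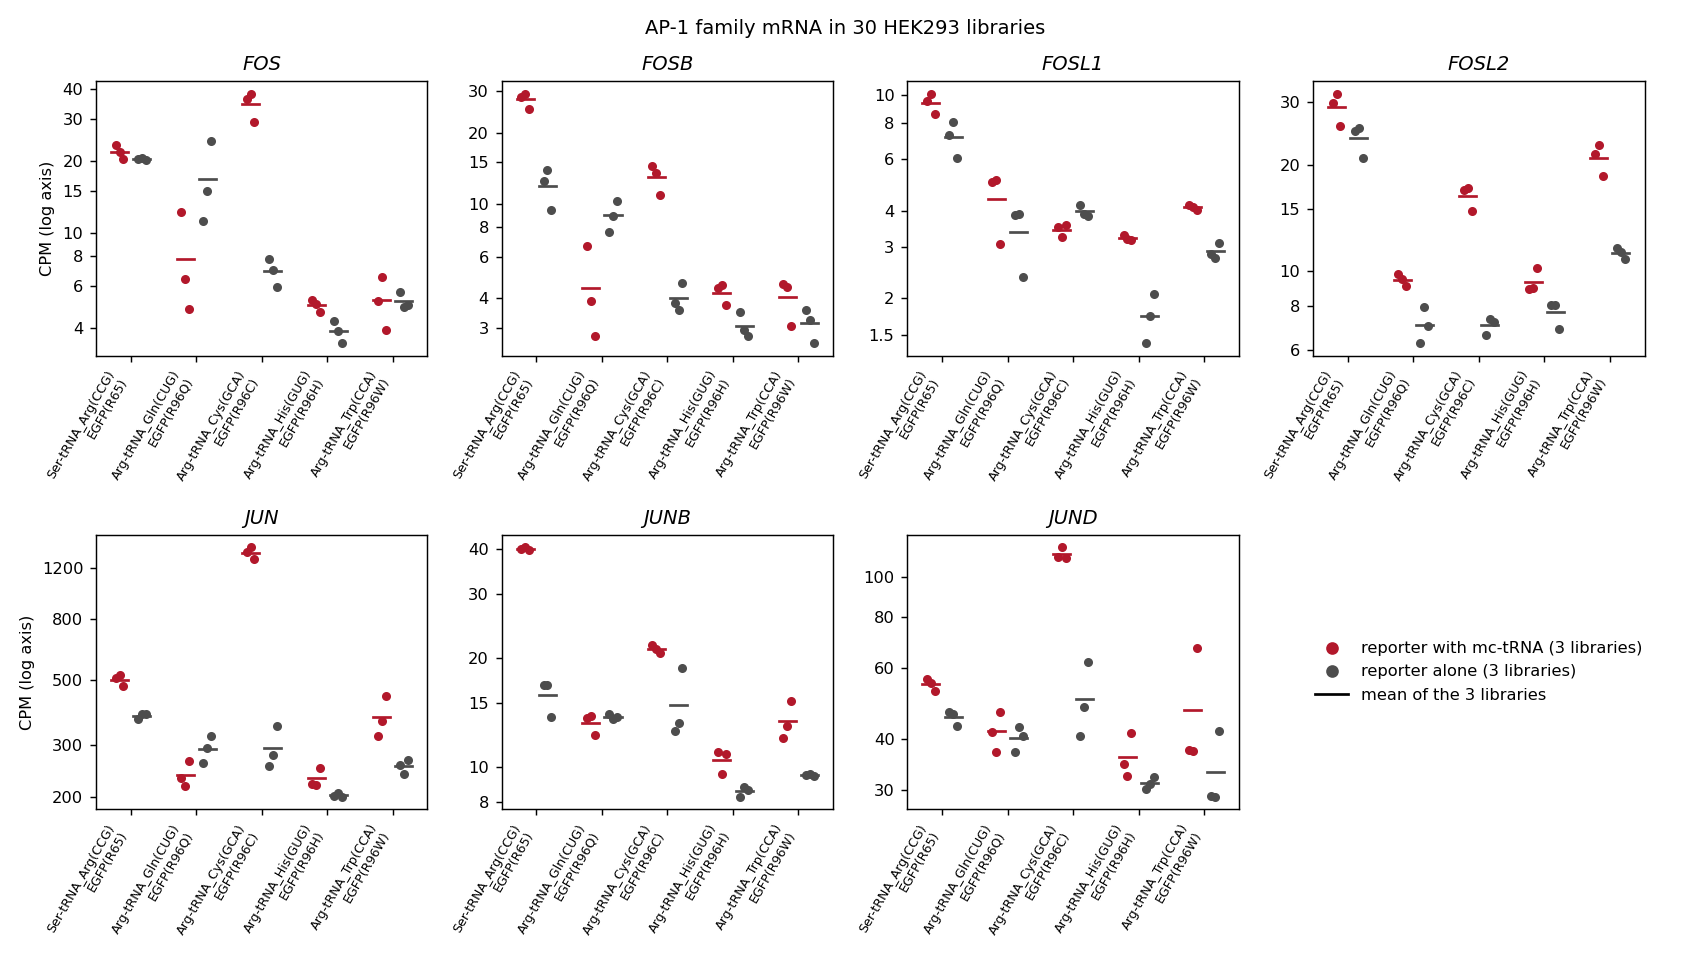
CPM (log axis, one panel per gene with its own scale) of each AP-1 member in the 30 libraries, with mc-tRNA libraries in red left of those of the reporter alone in grey; points are libraries and bars are means of 3. JUN with Arg-tRNA_Cys(GCA) sits at 1289 to 1408, above every other library, and JUNB with Ser-tRNA_Arg(CCG) sits at 39.7 to 40.4, above every other library.

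With Ser-tRNA_Arg(CCG), JUNB and FOSB rose most, whereas FOS and JUND did not pass the test. JUNB measured 39.96, 40.4 and 39.7 CPM in EGFP(R65)+Ser-tRNA_Arg(CCG) libraries, against 16.8, 16.8 and 13.7 CPM in EGFP(R65) libraries. It rose 2.54-fold (log2 change 1.35 ± 0.10, adjusted p = 1.47e-13), and the 3 mc-tRNA libraries were nearly equal. HOOK2, a gene on the other strand that shares 259 exonic bases with JUNB, rose in the same comparison by a log2 change of 0.36 ± 0.07 (adjusted p = 5.93e-05), and the part of such shared bases in JUNB was not tested. FOSB measured 28.4, 29.3 and 25.3 CPM with Ser-tRNA_Arg(CCG), against 12.5, 13.95 and 9.40 CPM in EGFP(R65) alone (log2 change 1.21 ± 0.20, adjusted p = 1.62e-05). Its locus lies within ERCC1 on the other strand without shared exonic bases, and ERCC1 fell, with a log2 change of -0.28 ± 0.07 (adjusted p = 0.000895).

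JUN measured 507.7, 517.9 and 474.4 CPM with Ser-tRNA_Arg(CCG), against 368.2, 381.1 and 381.9 CPM in EGFP(R65) alone, a log2 change of 0.41 ± 0.10 (adjusted p = 0.000975). The groups did not overlap, but the change was smaller than with Arg-tRNA_Cys(GCA). FOSL2 measured 29.9, 31.8 and 25.8 CPM with the mc-tRNA, against 24.8, 25.5 and 20.9 CPM without it (log2 change 0.30 ± 0.09, adjusted p = 0.00729). FOSL1 measured 9.47, 10.1 and 8.62 CPM, against 7.30, 8.05 and 6.04 CPM in EGFP(R65) alone (log2 change 0.40 ± 0.15, adjusted p = 0.0245). Both small rises rested on single libraries: without the third EGFP(R65) library, FOSL2 had an adjusted p of 0.0871 and FOSL1 of 0.153, without the second mc-tRNA library 0.0647 and 0.0936, and without the first mc-tRNA library FOSL1 had 0.0566. FOS measured 23.3, 21.9 and 20.5 CPM with Ser-tRNA_Arg(CCG), against 20.4, 20.6 and 20.2 CPM in EGFP(R65) alone (log2 change 0.10 ± 0.25, adjusted p = 0.753). JUND measured 56.4, 55.0 and 52.6 CPM, against 46.5, 46.2 and 43.0 CPM in EGFP(R65) alone (log2 change 0.27 ± 0.18, adjusted p = 0.218). Its groups did not overlap, and it was called with only the 6 libraries of the comparison in the fit (adjusted p = 0.000241).

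With Arg-tRNA_Trp(CCA), FOSL2 rose most and the 3 Jun members rose by similar amounts. FOSL2 measured 21.5, 22.7 and 18.6 CPM in EGFP(R96W)+Arg-tRNA_Trp(CCA) libraries, against 11.6, 11.3 and 10.8 CPM in EGFP(R96W) libraries, a 1.86-fold rise (log2 change 0.89 ± 0.10, adjusted p = 2.92e-09) with no overlap. JUN measured 321.1, 362.7 and 439.9 CPM with the mc-tRNA, against 255.4, 239.3 and 266.7 CPM without it (log2 change 0.56 ± 0.10, adjusted p = 4.54e-05). JUNB measured 12.0, 12.9 and 15.2 CPM, against 9.48, 9.54 and 9.44 CPM in EGFP(R96W) alone (log2 change 0.49 ± 0.11, adjusted p = 0.000287). JUN and JUNB were spread more widely with the mc-tRNA than without it, and neither overlapped. HOOK2 fell here (log2 change -0.25 ± 0.07, adjusted p = 0.00561). JUND measured 37.6, 37.4 and 67.0 CPM with Arg-tRNA_Trp(CCA), against 28.9, 28.9 and 41.9 CPM in EGFP(R96W) alone. One library stood apart in each group and the groups overlapped, so that the call (log2 change 0.51 ± 0.19, adjusted p = 0.031) was lost without the third mc-tRNA library (log2 change 0.18, adjusted p = 0.383) and without the first or the second EGFP(R96W) library (adjusted p = 0.125 and 0.129). In both groups the library that stood apart was numbered 3, and with a replicate block the call held (log2 change 0.48, adjusted p = 0.000947).

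Of the other Fos members, FOSL1 rose, with 4.19, 4.11 and 4.03 CPM with Arg-tRNA_Trp(CCA), against 2.85, 2.76 and 3.09 CPM in EGFP(R96W) alone (log2 change 0.50 ± 0.17, adjusted p = 0.0149). Its call was lost without the second EGFP(R96W) library (adjusted p = 0.0541). FOS measured 5.21, 6.56 and 3.94 CPM, against 5.68, 4.92 and 4.98 CPM in EGFP(R96W) alone (log2 change 0.01 ± 0.29, adjusted p = 0.978), and FOSB measured 4.61, 4.45 and 3.05 CPM, against 3.58, 3.24 and 2.58 CPM (log2 change 0.36 ± 0.24, adjusted p = 0.247). Both overlapped. With library totals the median of all genes in this comparison was -0.16, 31.4% of called genes rose in place of 48.8%, and FOSL1 and JUND were no longer called, which left 3 members.

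With Arg-tRNA_His(GUG), FOSL1 was the one member that rose. It measured 3.30, 3.19 and 3.16 CPM in EGFP(R96H)+Arg-tRNA_His(GUG) libraries, against 1.41, 1.74 and 2.07 CPM in EGFP(R96H) libraries, a 1.85-fold rise (log2 change 0.89 ± 0.18, adjusted p = 0.00505). The other 6 members had log2 changes between 0.19 ± 0.10 for JUN and 0.46 ± 0.24 for FOSB, with adjusted p-values of 0.125 to 0.62. For all 7, every mc-tRNA library lay above every EGFP(R96H) library, where 27.0% of all genes tested had groups that did not overlap in either direction. JUN, for example, measured 221.7, 219.7 and 250.9 CPM with Arg-tRNA_His(GUG), against 200.6, 206.6 and 200 CPM in EGFP(R96H) alone. JUNB measured 11.0, 9.56 and 10.8 CPM, against 8.25, 8.77 and 8.62 CPM. A fit of only these 6 libraries called 5 members in place of 1, adding FOS, FOSB, JUN and JUNB, and it called 1911 genes in place of 560.

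With Arg-tRNA_Gln(CUG), FOSB fell and FOSL2 rose. FOSB measured 6.63, 3.88 and 2.76 CPM in EGFP(R96Q)+Arg-tRNA_Gln(CUG) libraries, against 7.58, 8.93 and 10.4 CPM in EGFP(R96Q) libraries (log2 change -1.02 ± 0.22, adjusted p = 0.0261). The groups did not overlap, but the first mc-tRNA library lay near the EGFP(R96Q) values. FOS showed the same spread, with 12.2, 6.40 and 4.82 CPM with the mc-tRNA, against 11.3, 15.1 and 24.2 CPM without it. Its groups overlapped and it missed the threshold (log2 change -1.11 ± 0.26, adjusted p = 0.0557), although DESeq2 called it (adjusted p = 0.00539), as did the edgeR fit without the first mc-tRNA library (log2 change -1.60, adjusted p = 0.000892) or without the first EGFP(R96Q) library (log2 change -1.33, adjusted p = 0.0225). FOSL2 measured 9.84, 9.52 and 9.07 CPM with Arg-tRNA_Gln(CUG), against 6.28, 7.93 and 7.03 CPM in EGFP(R96Q) alone (log2 change 0.42 ± 0.10, adjusted p = 0.0467). Neither call was firm: FOSB lost it in 7 of 13 alternative settings, with adjusted p-values up to 0.354, and FOSL2 also in 7 of 13, up to 0.302. Leaving out one library took FOSB past the threshold for mc-tRNA library 2 or 3 (adjusted p = 0.132 and 0.137) and for EGFP(R96Q) library 2 or 3 (0.12 and 0.126), and it took FOSL2 past it for each mc-tRNA library (0.165, 0.125 and 0.0864) and for EGFP(R96Q) library 1 or 3 (0.302 and 0.126). JUN measured 231.7, 216.8 and 264.0 CPM with the mc-tRNA, against 259.8, 293.6 and 321.2 CPM without it (log2 change -0.30 ± 0.10, adjusted p = 0.247). JUNB, JUND and FOSL1 had log2 changes of -0.05 ± 0.10, 0.06 ± 0.18 and 0.39 ± 0.16, with adjusted p-values of 0.93, 0.963 and 0.382.

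An effect called with one mc-tRNA and not with another is not shown to differ, so the effects themselves were compared. An F-test over the 5 effects called all 7 members, where it called 72.5% of all genes tested, so the count alone says little about the family. JUND was not called with library totals (adjusted p = 0.32), which left 6 members, and JUND and FOSL1 were not called without the libraries numbered 1 (adjusted p = 0.135 and 0.146) or 2 (0.225 and 0.0778), which left 5. Without the libraries numbered 3, both were called (adjusted p = 2.15e-11 for JUND and 6.65e-05 for FOSL1). The 10 pairs of effects were then tested member by member with TMM factors, each pair adjusted over all genes. The pairs were not tested with library totals, which lowered the changes with Arg-tRNA_Cys(GCA). JUNB then had log2 changes of -0.046 with Arg-tRNA_Cys(GCA) and -0.076 with Arg-tRNA_Gln(CUG), whereas JUN had 1.655 with Arg-tRNA_Cys(GCA) and 0.441 with Arg-tRNA_Trp(CCA). Arg-tRNA_Cys(GCA) differed from Ser-tRNA_Arg(CCG) in 6 members (56.5% of all genes), from Arg-tRNA_Gln(CUG) in 7 (50.2%), from Arg-tRNA_His(GUG) in 6 (48.2%) and from Arg-tRNA_Trp(CCA) in 5 (43.7%). Ser-tRNA_Arg(CCG) differed from Arg-tRNA_Gln(CUG) in 4 (44.6%), from Arg-tRNA_His(GUG) in 1 (41.7%) and from Arg-tRNA_Trp(CCA) in 3 (45.3%). Arg-tRNA_Gln(CUG) differed from Arg-tRNA_Trp(CCA) in 5 (25.3%) and from Arg-tRNA_His(GUG) in 1 (0.811%), and Arg-tRNA_His(GUG) differed from Arg-tRNA_Trp(CCA) in 1 (22.8%). JUN rose more with Arg-tRNA_Cys(GCA) than with any other mc-tRNA: the effect of Arg-tRNA_Cys(GCA) minus that of Arg-tRNA_His(GUG) was 2.01 ± 0.14 (log2, adjusted p = 1.65e-12) and minus that of Arg-tRNA_Trp(CCA) 1.64 ± 0.14 (adjusted p = 1.89e-10), and the effect of Ser-tRNA_Arg(CCG) minus that of Arg-tRNA_Cys(GCA) was -1.80 ± 0.14 (adjusted p = 1.23e-11). FOS behaved alike, with 1.97 ± 0.39 against Arg-tRNA_His(GUG) (adjusted p = 0.000245) and 2.32 ± 0.39 against Arg-tRNA_Trp(CCA) (adjusted p = 4.32e-05), and -2.23 ± 0.36 for Ser-tRNA_Arg(CCG) minus Arg-tRNA_Cys(GCA) (adjusted p = 1.79e-05).

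JUNB had another order of effects. The effect of Ser-tRNA_Arg(CCG) on JUNB exceeded that of Arg-tRNA_Cys(GCA) by 0.84 ± 0.15 (adjusted p = 5.76e-06), that of Arg-tRNA_Trp(CCA) by 0.85 ± 0.15 (adjusted p = 1.14e-05), that of Arg-tRNA_His(GUG) by 1.06 ± 0.15 (adjusted p = 3.85e-07) and that of Arg-tRNA_Gln(CUG) by 1.40 ± 0.14 (adjusted p = 8.83e-10). FOSB moved in both: Ser-tRNA_Arg(CCG) minus Arg-tRNA_Cys(GCA) was -0.47 ± 0.30 (adjusted p = 0.187), and its effect with Arg-tRNA_Cys(GCA) exceeded that with Arg-tRNA_Trp(CCA) by 1.33 ± 0.33 (adjusted p = 0.00187). FOSL1 was the member whose effect was lowest with Arg-tRNA_Cys(GCA): Arg-tRNA_Cys(GCA) minus Arg-tRNA_His(GUG) was -1.10 ± 0.24 (adjusted p = 0.000311), and the difference from Arg-tRNA_Trp(CCA) was -0.71 ± 0.24 (adjusted p = 0.0148). For FOSL2, Arg-tRNA_Cys(GCA) minus Arg-tRNA_Trp(CCA) was 0.32 ± 0.14 (adjusted p = 0.0704), and both exceeded Ser-tRNA_Arg(CCG), which minus Arg-tRNA_Cys(GCA) was -0.91 ± 0.14 (adjusted p = 8.05e-07) and minus Arg-tRNA_Trp(CCA) -0.60 ± 0.14 (adjusted p = 0.000449). For JUND, Arg-tRNA_Cys(GCA) minus Arg-tRNA_Trp(CCA) was 0.67 ± 0.26 (adjusted p = 0.0413). These differences are on the TMM scale. With library totals JUND had log2 changes of 0.632 with Arg-tRNA_Cys(GCA) and 0.399 with Arg-tRNA_Trp(CCA). FOSL2 then had 0.662 and 0.764, and these pairs were not tested on that scale.

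The reporters alone already differed in these genes. All 7 members differed among the 5 reporters alone by F-test, where 78.8% of all genes did, and all 7 among the 4 EGFP(R96) reporters, where 54.7% did. JUND lost both calls without the libraries numbered 1 (adjusted p = 0.0981 and 0.101) or 2 (0.127 and 0.156). It kept both without the libraries numbered 3 (adjusted p = 2.8e-09 and 1.81e-07). EGFP(R96H) alone had the lowest mean of all 10 groups for every member except FOSL2. FOS averaged 3.88 ± 0.40 CPM in EGFP(R96H), 5.195 ± 0.422 in EGFP(R96W), 6.92 ± 0.94 in EGFP(R96C), 16.9 ± 6.7 in EGFP(R96Q) and 20.4 ± 0.2 in EGFP(R65) (SD, n = 3 each). EGFP(R96H) minus EGFP(R96Q) was -2.12 ± 0.28 for FOS (log2, adjusted p = 4.65e-06) and -1.55 ± 0.23 for FOSB (adjusted p = 1.09e-05), while EGFP(R96W) minus EGFP(R96H) was 0.42 ± 0.29 (adjusted p = 0.399) and 0.04 ± 0.24 (adjusted p = 0.951) for the same genes. FOSL2 had another order, with 11.3 ± 0.4 CPM in EGFP(R96W) and 7.05 ± 0.40 to 7.66 ± 0.68 in EGFP(R96C), EGFP(R96Q) and EGFP(R96H), and EGFP(R96W) minus EGFP(R96C) was 0.67 ± 0.10 (adjusted p = 5.14e-06). JUN was closer between reporters, at 202.4 ± 3.7 CPM in EGFP(R96H), 253.8 ± 13.8 in EGFP(R96W), 291.5 ± 30.8 in EGFP(R96Q), 292.9 ± 48.3 in EGFP(R96C) and 377.1 ± 7.7 in EGFP(R65).

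Over the 10 groups, the libraries of the highest group did not overlap those of the next for any member, while many lower neighbours overlapped. Where one neighbour had the EGFP(R65) reporter and the other an EGFP(R96) reporter, their difference cannot be told apart from a possible one in library handling. For JUN, Arg-tRNA_Cys(GCA) at 1350 ± 60 CPM stood above Ser-tRNA_Arg(CCG) at 500 ± 22.8 (adjusted p = 4.29e-13), and that above EGFP(R65) alone (adjusted p = 0.000975), while the next neighbours, EGFP(R65) alone and Arg-tRNA_Trp(CCA), overlapped (adjusted p = 0.943). For JUNB, Ser-tRNA_Arg(CCG) at 40.04 ± 0.35 CPM stood above Arg-tRNA_Cys(GCA) at 21.2 ± 0.58 (adjusted p = 4.48e-10). For FOSB, Ser-tRNA_Arg(CCG) at 27.7 ± 2.1 CPM stood above Arg-tRNA_Cys(GCA) at 12.96 ± 1.83 (adjusted p = 4.23e-05), which overlapped EGFP(R65) alone at 12.0 ± 2.3 (adjusted p = 0.639). For FOS, Arg-tRNA_Cys(GCA) at 34.7 ± 4.9 CPM stood above Ser-tRNA_Arg(CCG) at 21.9 ± 1.4 (adjusted p = 0.0214), and each group from second to eighth place overlapped the next. FOSL1 and FOSL2 were both highest with Ser-tRNA_Arg(CCG), at 9.39 ± 0.74 and 29.1 ± 3.1 CPM, with EGFP(R65) alone next. These neighbours were set by the order of the means, and their p-values are adjusted over all genes within each pair of groups.

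Across the 30 libraries, log2 CPM of the members varied together to different extents. Libraries of the same group share their plasmids, so r over all 30 also holds the differences between groups. Correlations within groups were not computed. Pearson's r was 0.935 for JUN and JUND, 0.900 for FOS and FOSB and 0.877 for FOSB and JUNB, and lowest, at 0.286, for FOSL1 and JUND. Among 22205 other genes with a symbol, those most like JUN over the 30 libraries were GADD45B, a stress-induced regulator of JNK and p38 signalling (r = 0.975), DUSP1, a phosphatase of the MAP kinases (r = 0.971), and B3GNT2 (r = 0.970). DUSP1 had a log2 change of 3.78 ± 0.10 with Arg-tRNA_Cys(GCA) (adjusted p = 1.2e-25), 0.84 ± 0.09 with Arg-tRNA_Trp(CCA) (adjusted p = 1.08e-08) and 0.36 ± 0.09 with Ser-tRNA_Arg(CCG) (adjusted p = 0.00112), and it was not called with Arg-tRNA_His(GUG) (0.23 ± 0.10, adjusted p = 0.213) or Arg-tRNA_Gln(CUG) (-0.09 ± 0.09, adjusted p = 0.835). Those like JUND included MSX1 (r = 0.919) and again GADD45B (r = 0.918). For JUNB they were PLEKHH3 (r = 0.953), ZFP36 (r = 0.951), whose protein binds AU-rich elements and hastens mRNA decay, and ZSWIM4 (r = 0.950). FOS had BTBD9 (r = 0.933), CELF3 (r = 0.923) and FAM13B (r = 0.913), FOSB had ABAT (r = 0.930), KDM5B (r = 0.928) and SCN3B (r = 0.919), FOSL1 had GATA2 (r = 0.928), TMEM104 (r = 0.915) and RANBP10 (r = 0.914), and FOSL2 had CMYA5 (r = 0.972), FAM219A (r = 0.964) and EXO1 (r = 0.964).

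The genes around AP-1 were followed through 7 lists of 99 genes. Their counts are to be read against the shares of all genes, which were 30.2% risen and 30.5% fallen with Arg-tRNA_Cys(GCA) (14.1% and 55.6% with library totals), 26.6% and 30.7% with Ser-tRNA_Arg(CCG), 20.7% and 21.7% with Arg-tRNA_Trp(CCA) (14.3% and 31.3% with library totals), 1.56% and 0.950% with Arg-tRNA_His(GUG), and 0.273% and 0.278% with Arg-tRNA_Gln(CUG). With library totals, Ser-tRNA_Arg(CCG) has 3 risen and 5 fallen bZIP partners, 4 and 4 AP-1 targets and 8 and 6 other immediate early genes. Of all genes, 25.1% then rose and 32.5% fell. Arg-tRNA_His(GUG) has 1 and 0 bZIP partners and 1 and 1 AP-1 targets, where 1.29% and 1.38% of all genes rose and fell. The Arg-tRNA_Trp(CCA) counts below also shift with library totals. They become 5 risen and 2 fallen for the bZIP partners, 4 and 4 for the JNK cascade, and 9 and 5 for the ERK and p38 cascades. The promoter factors have 4 and 3, the turnover genes 2 and 3, the AP-1 targets 4 and 3, and the other immediate early genes 7 and 4. The median log2 change with Arg-tRNA_Cys(GCA) was 1.07 for the bZIP partners, 0.46 for the JNK cascade, 0.21 for the ERK and p38 cascades, 0.42 for the promoter factors, 0.30 for the turnover genes, 0.66 for the AP-1 targets and 0.46 for the other immediate early genes, against -0.04 for all genes. Among 12 tested bZIP partners other than Fos and Jun, 8 rose and 3 fell with Arg-tRNA_Cys(GCA), led by ATF3, a stress-induced partner of Jun proteins (1750 ± 44 CPM with the mc-tRNA, 145.6 ± 5.6 in EGFP(R96C) alone, log2 change 3.59 ± 0.09, adjusted p = 4.21e-26) and the small Maf protein MAFF (log2 change 2.31 ± 0.11, adjusted p = 1.72e-19), while MAF fell (-0.99 ± 0.10, adjusted p = 4.38e-11). With library totals these counts were 6 and 4. With Ser-tRNA_Arg(CCG) 4 rose and 4 fell, and ATF3 was the largest fall (231.4 ± 9.9 CPM, against 422.5 ± 17.4 in EGFP(R65) alone, log2 change -0.87 ± 0.08, adjusted p = 1.3e-10) and MAF the largest rise (0.87 ± 0.10, adjusted p = 1.37e-09). With Arg-tRNA_Trp(CCA) 5 rose and 1 fell, led by MAFG (1.16 ± 0.06, adjusted p = 2.02e-17) and MAFF (1.11 ± 0.11, adjusted p = 4.9e-10). MAFG rose also with Arg-tRNA_Gln(CUG) (0.52 ± 0.06, adjusted p = 8.18e-07), as the only called gene of the list, and with Arg-tRNA_His(GUG) 2 rose, MAFF (0.52 ± 0.12, adjusted p = 0.0107) and MAFG (0.23 ± 0.06, adjusted p = 0.0335). The MAFG call with Arg-tRNA_His(GUG) was lost with library totals (log2 change 0.205, adjusted p = 0.0579).

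Upstream, the kinases of the JNK cascade were mixed. With Arg-tRNA_Cys(GCA) 7 of 13 rose and 5 fell, where 30.2% of all genes rose and 30.5% fell, and 4 rose and 6 fell with library totals, where 14.1% and 55.6% did. The largest rises were MAPK10 (JNK3, log2 change 1.60 ± 0.16, adjusted p = 3.58e-11) and MAP3K7 (TAK1, 1.20 ± 0.08, adjusted p = 6.06e-16), with MAP3K5 (ASK1) the largest fall (-0.57 ± 0.09, adjusted p = 8.65e-07). MAP3K5 fell also with Ser-tRNA_Arg(CCG) (-1.26 ± 0.09, adjusted p = 7.36e-14; 3 of 13 rose and 4 fell) and Arg-tRNA_Trp(CCA) (-0.82 ± 0.09, adjusted p = 1.35e-09; 4 rose and 4 fell). Of 18 genes of the ERK and p38 cascades, 9 rose and 5 fell with Arg-tRNA_Cys(GCA), 4 and 11 with library totals, led by BRAF (1.43 ± 0.08, adjusted p = 2.62e-17) and MAP2K1 (MEK1, 0.85 ± 0.06, adjusted p = 3.43e-15). With Ser-tRNA_Arg(CCG) 8 rose and 7 fell (NRAS 0.66 ± 0.06, adjusted p = 4.11e-11), and with Arg-tRNA_Trp(CCA) 9 rose and 4 fell (MAP2K2 0.63 ± 0.06, adjusted p = 3.15e-10). In the 2 weaker comparisons, EGFR rose with Arg-tRNA_Gln(CUG) (0.53 ± 0.08, adjusted p = 0.000228) and HRAS (0.47 ± 0.10, adjusted p = 0.00768) and RPS6KA1 (0.27 ± 0.07, adjusted p = 0.04) with Arg-tRNA_His(GUG), and 0 of the 13 JNK genes were called in either, by edgeR.

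Factors known to act on the FOS and JUN promoters rose in 7 of 9 and fell in 0 with Arg-tRNA_Cys(GCA), but 2 rose and 4 fell with library totals. MEF2A (log2 change 1.36 ± 0.08, adjusted p = 2.41e-17) and MEF2D (1.00 ± 0.06, adjusted p = 2.08e-16) led. MEF2D rose as well with Ser-tRNA_Arg(CCG) (0.65 ± 0.06, adjusted p = 2.79e-11; 5 rose and 2 fell) and with Arg-tRNA_Trp(CCA) (0.98 ± 0.06, adjusted p = 3.85e-15; 6 rose and 2 fell). Of 7 genes that act on the turnover of AP-1 mRNA or protein, 6 rose and 1 fell with Ser-tRNA_Arg(CCG). ZFP36 measured 25.6 ± 1.6 CPM with the mc-tRNA and 8.61 ± 0.56 in EGFP(R65) alone (1.57 ± 0.11, adjusted p = 3.31e-14), and COP1, a ubiquitin ligase for JUN, fell (-0.53 ± 0.06, adjusted p = 5.86e-09). With Arg-tRNA_Cys(GCA) 4 rose and 1 fell, 2 and 4 with library totals, and with Arg-tRNA_Trp(CCA) 3 rose and 2 fell. FBXW7, the substrate subunit of another ligase for JUN, was the one gene called with Arg-tRNA_His(GUG) (0.35 ± 0.09, adjusted p = 0.0266).

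Of 17 tested genes known as AP-1 targets, 8 rose and 3 fell with Arg-tRNA_Cys(GCA), 7 and 6 with library totals. MMP13, a collagenase, was low in all libraries of this comparison (4.17 ± 1.06 CPM with the mc-tRNA and 0.115 ± 0.113 in EGFP(R96C) alone, log2 change 5.27 ± 0.45, adjusted p = 1.42e-12), as was AREG, an EGFR ligand (2.94 ± 0.29 and 0.174 ± 0.083 CPM, 4.002 ± 0.361, adjusted p = 5.09e-12). In EGFP(R96C) alone both lay near the limit of a count of 0 (0.0541 to 0.0769 CPM), so the size of these changes is uncertain. The filter on low counts takes in all 30 libraries, so a gene this low in one group can pass it through another. CCND1 (cyclin D1), known as a JUN target, moved the other way, with 5.94 ± 0.48 CPM with the mc-tRNA and 18.5 ± 1.3 without it (-1.64 ± 0.10, adjusted p = 3.89e-16). With Ser-tRNA_Arg(CCG) 5 rose and 4 fell (HBEGF 0.91 ± 0.14, adjusted p = 2.53e-06), with Arg-tRNA_Trp(CCA) 4 rose and 2 fell (PLAU -0.80 ± 0.16, adjusted p = 0.000145), with Arg-tRNA_His(GUG) 2 rose and 1 fell (LIF 0.65 ± 0.13, adjusted p = 0.00572), and with Arg-tRNA_Gln(CUG) 0 were called by edgeR.

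Among 17 tested immediate early genes outside the family, 11 rose and 2 fell with Arg-tRNA_Cys(GCA), where 30.2% of all genes rose and 30.5% fell, and 7 rose and 6 fell with library totals, where 14.1% and 55.6% did. IER5, a regulator of heat shock factor, measured 929.8 ± 12.6 CPM with the mc-tRNA and 55.8 ± 9.8 in EGFP(R96C) alone (log2 change 4.06 ± 0.08, adjusted p = 3.22e-30), and CCN1 (CYR61) had a change of 2.22 ± 0.11 (adjusted p = 7.7e-17), while MYC fell (-0.88 ± 0.08, adjusted p = 1.77e-12). With Ser-tRNA_Arg(CCG) 9 rose and 6 fell, with EGR3 the largest rise (0.91 ± 0.16, adjusted p = 9.67e-06) and MYC the largest fall (-1.40 ± 0.08, adjusted p = 6.17e-17). With Arg-tRNA_Trp(CCA) 9 rose and 4 fell (BTG2 1.10 ± 0.09, adjusted p = 1.25e-11, and KLF10 -0.96 ± 0.07, adjusted p = 9.79e-14). With Arg-tRNA_His(GUG) 2 rose, CCN1 (0.58 ± 0.11, adjusted p = 0.00596) and BTG2 (0.55 ± 0.09, adjusted p = 0.00126). With Arg-tRNA_Gln(CUG) 1 was called: EGR1, an immediate early zinc finger factor, fell (11.8 ± 3.7 CPM, against 25.2 ± 4.6 in EGFP(R96Q) alone, -1.10 ± 0.16, adjusted p = 0.000449), as FOSB did.

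**Figure D4:**
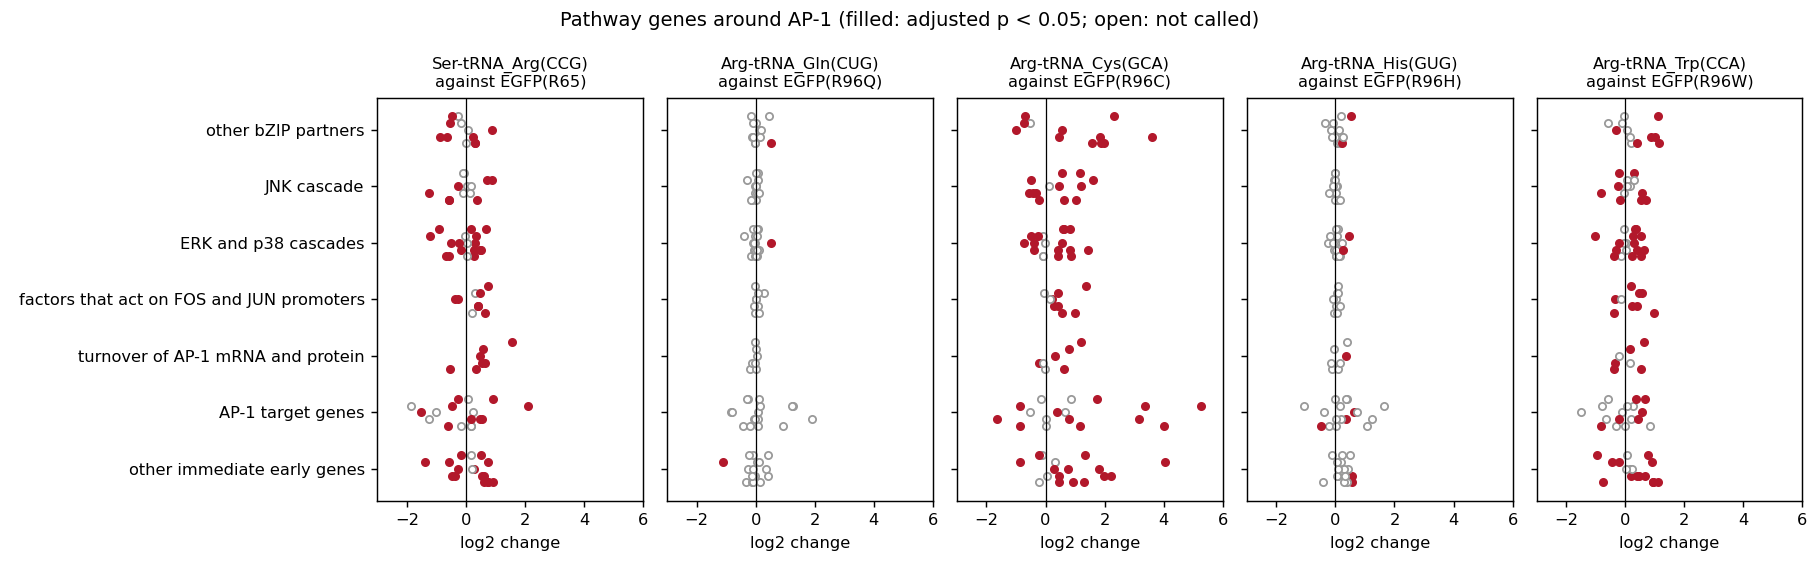
Log2 change (mc-tRNA over reporter alone) of each tested gene of the 7 lists in the 5 comparisons; filled points have an adjusted p under 0.05, open points do not. The widest spread is with Arg-tRNA_Cys(GCA), from -1.64 (CCND1) to 5.27 (MMP13). MMP13 lay near the limit of a count of 0 in EGFP(R96C) alone. Few points are filled with Arg-tRNA_Gln(CUG) or Arg-tRNA_His(GUG), and values are on the TMM scale.

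Markers of other cell types moved with some of these results. Their sum was 51.9 to 53.6 CPM with Arg-tRNA_Cys(GCA), against 21.9 to 24.0 CPM in EGFP(R96C) alone, and 35.3 to 38.1 CPM with Ser-tRNA_Arg(CCG), against 26.5 to 29.1 CPM in EGFP(R65) alone. Of the 12 markers, only 5 passed the filter on low counts and were tested. Of these 5, 3 rose and 1 fell with Arg-tRNA_Cys(GCA), where 30.2% of all genes rose and 30.5% fell. With Ser-tRNA_Arg(CCG) 2 rose and 1 fell, where 26.6% and 30.7% did. COL1A1 carried the first difference (47.1 ± 0.6 and 18.0 ± 0.8 CPM) and ALB the second (9.41 ± 0.81 and 0.536 ± 0.132 CPM). The defining blood and keratinocyte markers PTPRC, CD3E, HBB, KRT5 and KRT14 stayed under 0.1 CPM in every library. The HEK293 markers summed to 122.6 to 138.4 CPM with Arg-tRNA_Cys(GCA), against 150.8 to 160.5 CPM in EGFP(R96C) alone, to 94.4 to 95.3 CPM with Ser-tRNA_Arg(CCG), against 103.9 to 128.2 CPM in EGFP(R65) alone, and to 108.5 to 124.5 CPM with Arg-tRNA_Trp(CCA), against 139.4 to 148.7 CPM in EGFP(R96W) alone. The part of these shifts in the AP-1 values was not tested.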

How the data were processed

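Reads were aligned with STAR and counted with featureCounts on hg38, with SAMtools also listed, per the submitters' processing notes. The sources used here do not give versions, annotation or strand setting. The file headers name alignments of unique paired-end reads, and the deposited values are raw counts without normalization, 1 file per library. Symbols came from a gene name table and GENCODE release 29, which gave positions and exon lengths.

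Counts were fitted with edgeR 4.0.16 in R 4.3.3 (TMM factors of 0.714 to 1.12, filterByExpr, robust quasi-likelihood) as 10 group means over all 30 libraries, with 20 residual degrees of freedom and a biological coefficient of variation of 8.24%. CPM is TMM-scaled; errors are SE for log2 changes and SD for levels. ERCC counts entered no test. The fit was tested on simulated data. Replicates differed by more than counting error (chi-square per degree of freedom 2.08 to 36.7 over 30 pairs).

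All 7 members are named in every comparison, and from each list up to 2 called genes per direction with the largest change; likeness names 3 genes per member; some genes these rules name are not reported here. Members and lists were chosen with earlier results of these data known. Alternatives were RLE factors, library totals, DESeq2 1.42.0, no filter, fewer libraries, a replicate block and leaving out each library.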

Additional observations from a re-analysis of the deposited data

Results flagged for a closer look

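The effect of the mc-tRNA on each of the 7 members differed among the 5 comparisons by an F-test of that difference (edgeR, adjusted over all genes). The adjusted p was 1.18e-13 for JUN, which had log2 changes of 2.20 with Arg-tRNA_Cys(GCA) and -0.30 with Arg-tRNA_Gln(CUG). It was 3.68e-09 for JUNB, 3.78e-07 for FOSL2, 4.45e-07 for FOSB and 9.7e-07 for FOS. FOSL1, with the lowest effect with Arg-tRNA_Cys(GCA), had 0.00383, and JUND had 0.00441. The same test called 72.5% of all genes. With library totals it called 6 members, and JUND had an adjusted p of 0.32.

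ERCC spike-in sequences, which entered no comparison, had up to 106 counts in a library with an EGFP(R96) reporter and 0 in each of the 6 EGFP(R65) libraries.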

How the results depend on the processing

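Of 448 recomputed member changes, 403 kept their direction and their side of the threshold, 5 changed sign without being called (FOS with Arg-tRNA_Trp(CCA) and JUND with Arg-tRNA_Gln(CUG)), 27 lost and 12 gained a call, and 1 reversed: JUNB with Arg-tRNA_Cys(GCA), at -0.046 with library totals. The cause was not tested beyond the scaling itself. Called members and called genes that moved by over 1.5 times were as follows. With library totals, 3 members were called with Arg-tRNA_Trp(CCA) in place of 5. With only the 6 libraries compared, 0 members and 66 genes were called with Arg-tRNA_Gln(CUG) in place of 2 and 123, and 5 members and 1911 genes with Arg-tRNA_His(GUG) in place of 1 and 560. With no filter 196 genes were called with Arg-tRNA_Gln(CUG), and with DESeq2 242, and 913 with Arg-tRNA_His(GUG). Without the EGFP(R65) libraries, 369 were called with Arg-tRNA_His(GUG). Leaving out one library in turn, called members ranged from 3 to 5 with Ser-tRNA_Arg(CCG), 0 to 2 with Arg-tRNA_Gln(CUG) and 3 to 5 with Arg-tRNA_Trp(CCA), stayed at 6 with Arg-tRNA_Cys(GCA) and at 1 with Arg-tRNA_His(GUG), and called genes ranged from 45 to 93 with Arg-tRNA_Gln(CUG) and from 53 to 636 with Arg-tRNA_His(GUG). Without length correction, the order JUN, JUND, JUNB at the top held in 5 groups in place of 10.

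Over all genes tested, libraries with the same replicate number were little alike: the correlation of same-numbered deviations was -0.077 to 0.14 and over 0.1 in 4 of 15 pairs. Such a correlation over all genes cannot exclude pairing for a single gene. With a replicate block, 1 member and 196 genes were called with Arg-tRNA_Gln(CUG), where FOSB had an adjusted p of 0.0643, and 1068 genes with Arg-tRNA_His(GUG). In the same fit 6 members were called with Ser-tRNA_Arg(CCG), where JUND had 0.0269. JUND with Arg-tRNA_Trp(CCA) had 0.000947 with the block, against 0.031 without it. Depth limits FOSL1 most, with 78 to 117 counts per library in EGFP(R96H) alone.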
